A study of Homo sapiens with 2 samples.

Results

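Gene-desert regions were defined as open chromatin regions of CAMA-1 cells that lay outside every protein-coding gene and more than 300 kb from the nearest protein-coding transcription start site (TSS). They numbered 11185 of the 209570 regions that both replicates shared on the autosomes, or 5.34%, and of the 215195 shared on every chromosome. A shared region was the merged interval of overlapping peaks to which both replicates contributed, and its midpoint was placed against the GENCODE release 44 annotation on hg38. The study profiled chromatin accessibility by ATAC-seq, in which Tn5 transposase cuts and tags accessible DNA, in 2 biological replicates of 50000 untreated CAMA-1 cells each. CAMA-1 is an estrogen receptor-positive luminal breast cancer cell line, grown here as an adherent culture. There was 1 condition and no control group, so values were compared between classes of regions within the same libraries. The intergenic regions 3 to 100 kb from a coding TSS, of which 55009 were shared, served as the comparison class, and the 17175 regions at 100 to 300 kb lay between them.

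A gene desert is a long stretch of a chromosome without protein-coding genes. Many deserts flank genes for developmental transcription factors and hold enhancers that act over long distances, while others are poor in regulatory elements and rich in repeats. Sites of the insulator protein CTCF, long noncoding RNA (lncRNA) genes and binding sites of lineage factors such as the forkhead protein FOXA1 are known features of distal open chromatin in luminal breast cells.

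One member is shown for each of 4 motifs that mark insulators and epithelial enhancers, the strongest without a copied 32-base word on the chromosomes from which sequence is printed here. Each sequence is the 100-base window around the region's midpoint, on the plus strand of hg38, with the motif match in capitals. The CTCF example was chr12:89019690-89019789 in the lncRNA gene LINC02458, 331 kb from DUSP6. The forkhead example was chr22:47461189-47461288, 687 kb from TBC1D22A, and lay in no annotated gene. The AP-1 example was chr2:76256811-76256910, 546 kb from GCFC2, inside the lncRNA gene ENSG00000287172. The grainyhead example was chr6:51473261-51473360, 614 kb from PKHD1, in no annotated gene.
CTCF core: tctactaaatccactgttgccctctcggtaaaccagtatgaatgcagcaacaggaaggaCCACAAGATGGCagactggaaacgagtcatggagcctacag
forkhead: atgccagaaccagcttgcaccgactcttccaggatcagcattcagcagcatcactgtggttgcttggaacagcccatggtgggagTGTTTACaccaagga
AP-1: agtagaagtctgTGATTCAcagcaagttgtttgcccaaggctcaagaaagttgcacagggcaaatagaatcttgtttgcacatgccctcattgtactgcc
grainyhead: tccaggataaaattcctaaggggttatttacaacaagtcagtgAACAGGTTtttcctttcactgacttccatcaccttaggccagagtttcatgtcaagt

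These 4 regions were open in both libraries at unequal strength. Strength is given as the fold enrichment that the peak caller wrote, the highest pile-up of a peak plus 1 over the background plus 1. The forkhead example reached 121 in replicate 1 and 134 in replicate 2, the AP-1 example 113 and 120, and the grainyhead example 113 and 122. The CTCF example was weaker, at 58.0 and 58.8, although it was the strongest CTCF match that met the same conditions.

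A second set of windows is shown for the immunoglobulin heavy chain locus, which was singled out after its values were seen for the CTCF share given further on. The annotation types immunoglobulin gene segments apart from protein-coding genes, so the rule counted this locus, between TMEM121 and the end of chromosome 14, as desert. The windows beside IGHV3-72 (chr14:106790614-106790713), IGHV4-34 (chr14:106373540-106373639) and IGHV4-59 (chr14:106627128-106627227) are given on the plus strand with the CTCF core in capitals, where it reads on the other strand.
IGHV3-72: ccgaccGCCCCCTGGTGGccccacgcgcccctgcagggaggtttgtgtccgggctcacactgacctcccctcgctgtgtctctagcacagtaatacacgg
IGHV4-34: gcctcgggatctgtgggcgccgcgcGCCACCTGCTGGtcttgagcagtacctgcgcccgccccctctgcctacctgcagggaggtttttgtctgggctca
IGHV4-59: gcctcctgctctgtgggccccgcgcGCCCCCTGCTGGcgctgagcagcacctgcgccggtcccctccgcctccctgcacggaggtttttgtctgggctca

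The libraries were alike in size as peak lists: 245736 peaks were called in replicate 1 and 259745 in replicate 2. Read depth was not part of the peak lists, so the precision of a value rests on its pile-up. Fold enrichments were whole multiples of 0.230 in replicate 1 and 0.221 in replicate 2, from which pile-up heights were recovered, and the lowest height in either list was 11. The label of luminal epithelial cells was checked against promoters. All 10 luminal markers, from KRT8 to ELF3, had a peak of both replicates within 1 kb of a TSS, and so had the 3 basal markers, at fold enrichments from 5.29 to 28.5. Of the blood markers reported here, PTPRC, CD3E and SPI1 had none, and of 3 stromal markers COL1A1 and PDGFRB had one and PECAM1 had none. An open promoter does not show that a gene is transcribed, and a part of other cells in the desert values was not tested.

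Desert regions were sparse for the space they had. Bases that satisfied the rule made up 481 Mb, or 17.5% of the autosomal sequence, and held 23.2 shared regions per Mb. The density was 48.0 per Mb at 100 to 300 kb and 87.8 per Mb at 3 to 100 kb, so the desert density was 0.265 of that nearer to genes. It was lower than at 3 to 100 kb on 22 of 22 autosomes. Deserts hold more repeated sequence, which short reads cannot place: 75.9% of sampled 32-base words in them had no copy elsewhere in the genome, against 80.9% at 3 to 100 kb. Counted per Mb of such unique bases, the density was 30.6 in deserts and 109 at 3 to 100 kb. Across the autosomes the desert density ran from 6.29 per Mb on chromosome 19 to 35.8 per Mb on chromosome 8, with chromosome 1 at 27.8 and chromosome 11 at 12.3.

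Open regions thinned out with distance, within the deserts as well as on the way to them, but the far bins were also the most repetitive. From 120 per Mb at 3 to 10 kb the density came down to 39.7 per Mb at 200 to 300 kb. Inside the deserts it was 34.1 per Mb at 300 to 400 kb, 27.1 at 400 to 600 kb, 22.4 at 600 to 1000 kb and 15.1 at 1000 to 2000 kb. Beyond 2000 kb 86 regions were found, at 2.96 per Mb. The share of unique words was 86.3% at 300 to 400 kb, 82.7% at 600 to 1000 kb, 62.9% at 1000 to 2000 kb and 13.3% beyond. Per Mb of unique bases the density was 39.5, 31.5, 27.0, 24.0 and 22.3 in the 5 desert bins, so that the last bin no longer stood apart from its neighbor. The strength of members did not follow this course. Their median fold enrichment in replicate 1 stayed between 8.05 and 8.28 in each of the 5 desert bins, and in replicate 2 between 8.62 and 9.07. The median GC content went from 44.96% at 300 to 400 kb to 42.55% at 1000 to 2000 kb, and was 44.97% in the 86 regions beyond.

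**Figure D1:**
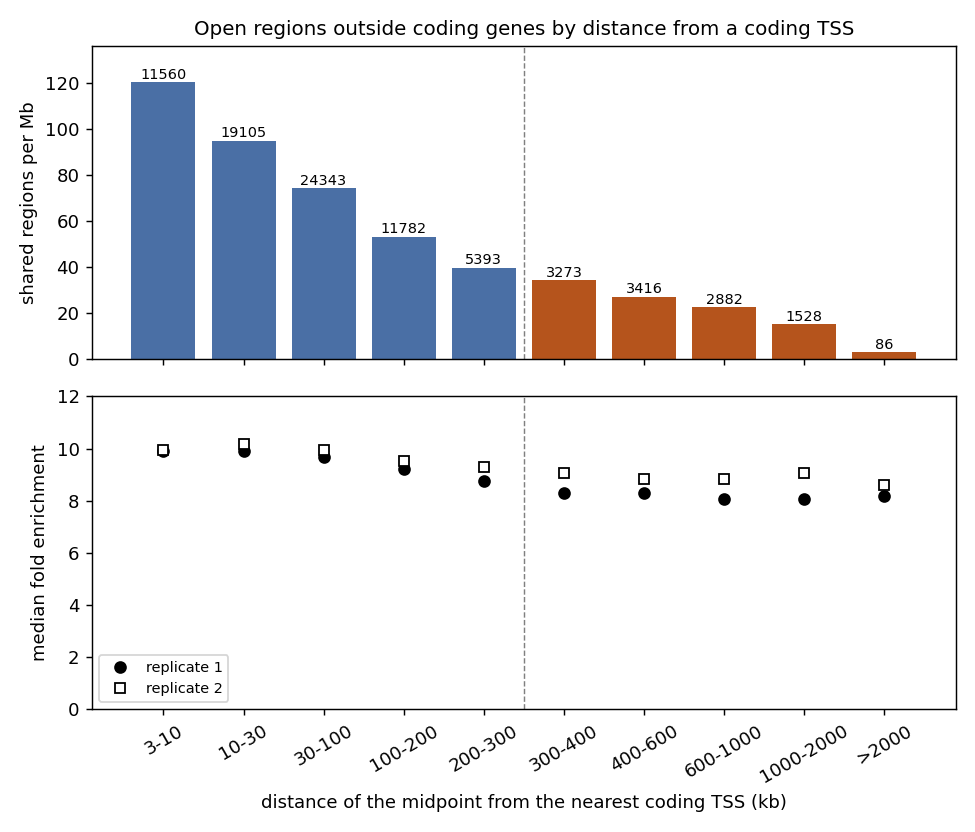
Upper panel, shared regions outside coding genes per Mb of sequence (y axis) in bins of distance from the nearest coding TSS in kb (x axis), with desert bins in orange, nearer bins in blue and the number of regions above each bar. Lower panel, the median fold enrichment of the same regions in replicate 1 (filled circles) and replicate 2 (open squares). The density falls from 120 to 2.96 per Mb, without regard to repeated sequence, while the medians right of the dashed line at 300 kb stay between 8.05 and 9.07.

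The regions next to the threshold and the member farthest from it are given as single examples. The member closest to the threshold, chr7:21086831-21086989, lay 300024 bp from SP8, and had fold enrichments of 4.83 and 4.20 in the replicates. The region just outside, chr18:75727486-75727815, lay 299948 bp from SMIM21, at 21.9 and 19.7. The member farthest from any coding TSS was chr21:5090494-5090681, 5430965 bp from TPTE, with fold enrichments of 5.52 and 5.75.

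Peaks in deserts were weaker and narrower than those nearer to genes. The median fold enrichment of the members was 8.28 in replicate 1 and 8.85 in replicate 2, against 9.89 and 9.95 at 3 to 100 kb. The desert median was thus 0.837 and 0.889 of the other, or 0.863 ± 0.0365 (SD, n = 2 replicates). Both replicates lay below 1 by more than their spread. No test was made: an exact permutation test of the 2 replicate medians in each class, with the pairing within libraries set aside, has 6 arrangements and a smallest two-sided p of 0.333, and regions are not replicates. The direction held on 22 of 22 autosomes in replicate 1 and on 21 in replicate 2, where chromosome 8 had equal medians of 9.07. The lowest ratios were those of chromosome 19, at 0.640 and 0.708, with 32 members. The median width was 305 bp against 357 bp.

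**Figure D2:**
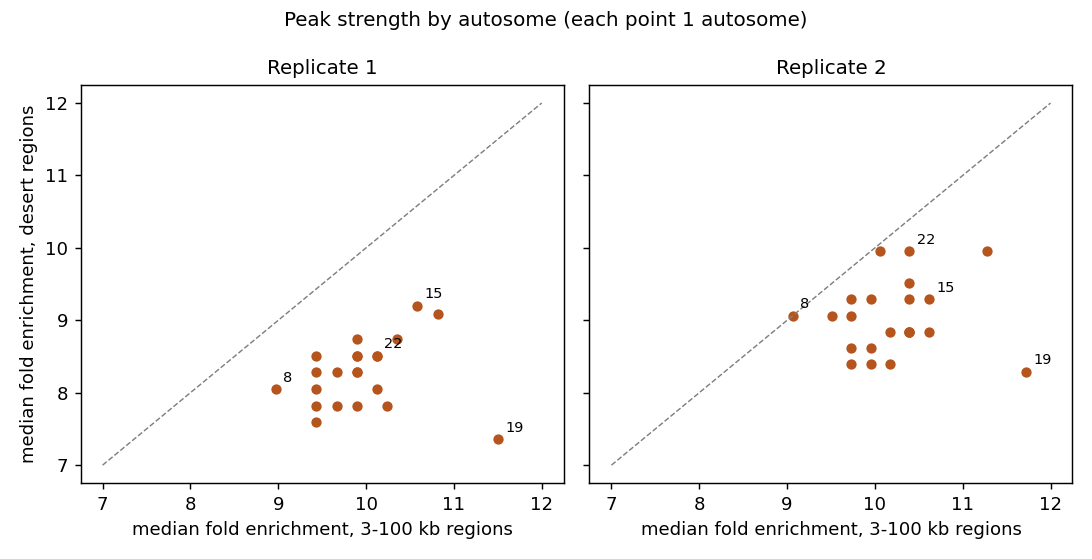
Median fold enrichment of desert regions (y axis) against that of intergenic regions 3 to 100 kb from a coding TSS (x axis), 1 point per autosome, in replicate 1 (left) and replicate 2 (right). The dashed line marks equal medians. Points lie below it on 22 autosomes in replicate 1 and on 21 in replicate 2, where chromosome 8 sits on it, and chromosome 19 lies farthest below.

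The difference was larger among strong peaks than at the median. In replicate 1 the pile-up heights of the members had a median of 35, a lowest value of 12 and a highest of 960, and in replicate 2 a median of 39, a lowest of 11 and a highest of 1053. Heights over 100 were reached by 12.7% of members in replicate 1 and 15.5% in replicate 2, against 22.9% and 24.5% at 3 to 100 kb. The first quartiles were close, at 5.52 and 5.97 in deserts against 5.98 and 5.97, while the third quartiles were 14.7 and 15.9 against 21.4 and 21.9. The strength of a member repeated between the libraries, with a Spearman correlation of 0.917 and a Pearson correlation of 0.983 over 11185 regions that share library depth and base composition, and 92.4% of members were within 1.5-fold.

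Desert regions were poor in GC and in CpG dinucleotides. Their median GC content was 43.8% against 49.1% at 3 to 100 kb, and the median was lower on 22 of 22 autosomes. No CpG at all was present in 15.1% of members and in 6.72% of the comparison class. Because GC content moves with the class, strength was also read within strata of it. In replicate 1 the desert median was lower in each of 4 strata: 7.82 against 8.51 at 30 to 40% GC, 8.51 against 9.89 at 40 to 45%, 8.51 against 10.1 at 45 to 50% and 8.05 against 9.89 at 50 to 60%. In replicate 2 it was lower in each as well, the smallest gap being 8.85 against 9.07 at 30 to 40% GC. The lower strength of desert peaks was present at like GC content in both libraries.

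The peaks behind the members repeated well in 1 library and less well in the other. In replicate 1, 12339 peaks had their midpoint in a desert and 11331 of them, or 91.8% (Wilson 95% interval 91.3 to 92.3), overlapped a peak of replicate 2 by at least 1 bp. Over all autosomal peaks of replicate 1 the share was 90.1%. In replicate 2, 11252 of 14023 desert peaks, or 80.2% (79.6 to 80.9), overlapped a peak of replicate 1, against 84.7% over all autosomal peaks. The intervals cover counting error only. Desert peaks were thus found again more often than the background from replicate 1 and less often from replicate 2, and the first of these differences was not kept at a stricter peak threshold, where it was -0.125 percentage points.

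The repetition followed peak height. Desert peaks with a height of 41 to 80 were found again in 100% of 2728 cases from replicate 1 and in 3028 of 3029 from replicate 2. At heights of 11 to 20 the shares were 70.9% of 2575 from replicate 1 and 41.2% of 2965 from replicate 2. The corresponding shares at 3 to 100 kb were 63.9% and 50.8%, so low desert peaks repeated more often than low peaks nearer to genes from replicate 1 and less often from replicate 2. Replicate 2 also read higher in deserts: the median ratio of replicate 2 to replicate 1 over members was 1.07, against 1.01 at 3 to 100 kb and 1.02 over all shared autosomal regions. The ratio was 1.09 for members at 30 to 40% GC and 1.04 at 50 to 60% GC, and at 3 to 100 kb it was 1.04 and 0.999 in the same strata. The part of GC content in this difference between the libraries was not tested further.

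Sequence motifs were counted as whole matches on either strand within 50 bp of the midpoint, and in flanking windows of equal length 200 to 300 bases away. The 12 motifs were searched by their letters: the CTCF core (the capitals of the CTCF example printed above, with 4 inner positions free), TGTTTAC for forkhead factors, the palindromic estrogen response element, TGANTCA for AP-1, AGATAAG for the GATA factors, CCGGAAG for ETS, GCCNNNGGC for AP-2, AACCNGTT for grainyhead, ACATTCC for TEAD, TGTGGTT for RUNX, TTGCNNAA for C/EBP and GGGCGGG for SP/KLF. At least 1 of them was present in 33.9% of members and none in 66.1%. A match is a description of letters and does not show that a factor was bound.

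CTCF cores were strongly centred in desert regions. They were present in 451 members, or 4.03% (Wilson 95% interval 3.68 to 4.41), and in 0.219% of the flanking windows, so the centre held them 18.4 times as often. At 3 to 100 kb the share was about the same, 3.90%, but the flanks held 0.458% and the centre exceeded them 8.51 times. The flanks lay at a fixed distance, while the classes differed in GC content and width, with upper quartiles of 432 bp against 557 bp. The part of these differences was not tested. The same letters in reverse order were found in 0.0179% of members. Members with the core were stronger than those without it, with median fold enrichments of 9.89 against 8.05 in replicate 1 and 10.6 against 8.85 in replicate 2. The ratio was 1.21 ± 0.0202 (SD, n = 2), and members with the core had the higher median in both replicates on 17 of 22 autosomes. At 3 to 100 kb the corresponding ratios were 1.57 and 1.49.

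Forkhead letters were the motif with the largest excess over nearer regions among those with more than 100 matches. They were present in 662 members, or 5.92% (5.50 to 6.37), against 3.16% at 3 to 100 kb, a ratio of 1.87. In the desert flanks the share was 1.78%, so the centre held them 3.32 times as often, while the letters in reverse order were present in 2.25%. The share rose with distance, from 2.79% at 3 to 30 kb through 4.15% at 100 to 300 kb to 6.45% at 600 to 1000 kb, and was 5.14% beyond 1000 kb. TGTTTAC is rich in A and T, and its share depended on GC content in both classes. Within strata it was 9.16% of members against 7.39% at 30 to 40% GC, 5.50% against 4.44% at 40 to 45%, 4.15% against 3.01% at 45 to 50% and 4.51% against 2.24% at 50 to 60%. Members with the letters were no stronger than the others, with ratios of 1.00 in both replicates.

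Motifs of epithelial and stress-responsive factors followed. AP-1 letters, bound by FOS and JUN dimers, were present in 7.60% of members against 6.37% at 3 to 100 kb, and grainyhead letters in 2.38% against 1.65%. Their centres exceeded the desert flanks 2.21 and 3.28 times. At like GC content both gaps were smaller: AP-1 stood at 7.89% against 7.83% at 30 to 40% GC and 8.65% against 7.65% at 40 to 45%, and grainyhead at 2.95% against 2.93% and 2.84% against 2.79% in the same strata. C/EBP letters reached 6.65% against 5.16%, but only 1.13 times the share of the flanks. At like GC content this gap was smaller or turned. The shares were 9.09% against 9.79% at 30 to 40% GC and 3.48% against 3.51% at 50 to 60%. They were 7.42% against 7.22% at 40 to 45% and 5.74% against 5.57% at 45 to 50%. RUNX letters were present in 2.83% against 2.22% and TEAD letters in 2.57% against 2.28%. Within strata RUNX turned only at 45 to 50% GC, with 2.09% against 2.58%. It stood at 3.29% against 2.34% at 30 to 40%, 3.35% against 2.60% at 40 to 45% and 2.49% against 1.93% at 50 to 60%. TEAD turned only at 40 to 45% GC, with 2.55% against 2.998%. It stood at 2.88% against 2.73% at 30 to 40%, 2.51% against 2.34% at 45 to 50% and 2.49% against 1.97% at 50 to 60%. GATA letters, in 1.56% of members, were no more frequent than in the flanks, at 1.62%. The estrogen response element was present in 5 members and in 14 regions at 3 to 100 kb, too few to compare. 

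Motifs typical of promoters were less frequent. SP/KLF letters were present in 0.572% of members against 1.66% at 3 to 100 kb, and ETS letters in 0.286% against 0.611%. SP/KLF stayed below the comparison class within each GC stratum, for example 1.40% against 1.89% at 50 to 60% GC. The 64 members with SP/KLF letters were stronger than the rest by a ratio of 1.43 ± 0.0786 (SD, n = 2). The SP/KLF share was 0.392% among members without copied sequence and 0.466% among those more than 1 kb from any TSS. The strength ratio was not computed for these subsets. AP-2 letters turned with GC content: they were less frequent when all members were counted, 4.86% against 6.08%, but more frequent within every stratum, from 2.81% against 1.90% at 30 to 40% GC to 8.92% against 7.63% at 50 to 60% GC. The CTCF core turned across strata, from 2.98% against 6.07% at 30 to 40% GC to 4.93% against 3.69% at 50 to 60% GC. Between these it stood at 3.78% against 3.79% at 40 to 45% and 4.34% against 3.57% at 45 to 50%. Members of the immunoglobulin heavy chain block had a median GC content of 54.7%, and their part in the last stratum was not tested.

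**Figure D3:**
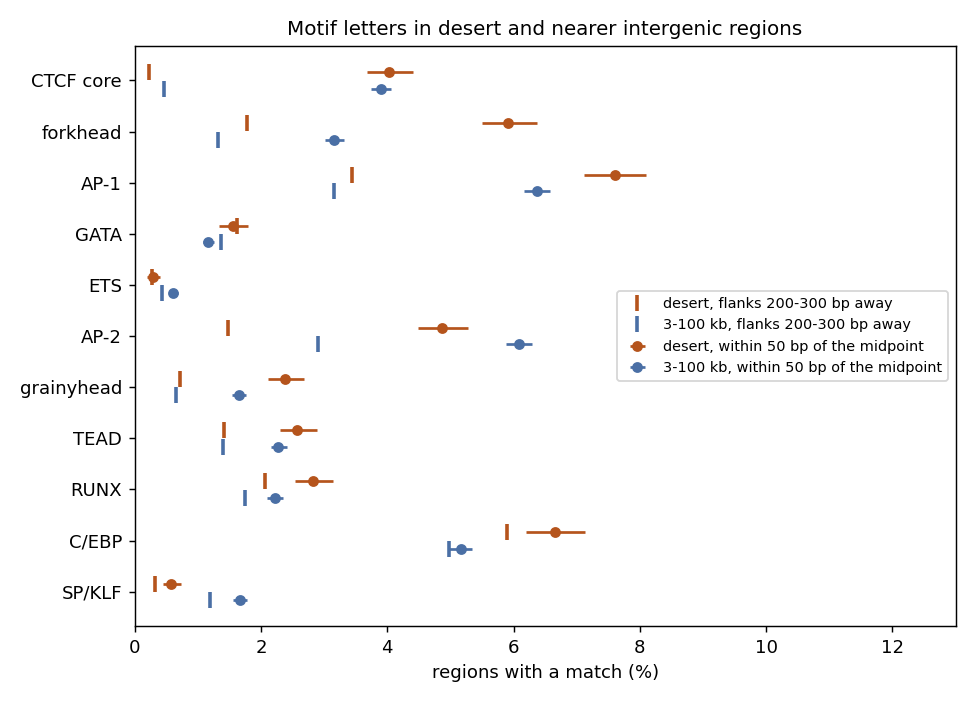
Percent of regions with a motif match (x axis) for 11 motifs (y axis, without the rare estrogen response element), in desert regions (orange) and intergenic regions 3 to 100 kb from a coding TSS (blue). Circles are the 100-base window around the midpoint with Wilson 95% intervals, and ticks are the flanking windows. The CTCF core has about the same share in both classes, 4.03% and 3.90%, and forkhead shows the widest gap in favor of deserts, 5.92% against 3.16%.

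The immunoglobulin heavy chain locus stood apart in its CTCF content. Immunoglobulin variable (V) segments encode the antigen-binding part of antibodies and are joined to other segments in B cells, and CTCF is known to bind at many places in this locus. The block from TMEM121 to the end of chromosome 14 held 166 annotated segments and 73 members, at 69.1 per Mb. Of these, 26 had a CTCF core, or 35.6% (Wilson 95% interval 25.6 to 47.1), against 2.05% of their flanks. Among the 89 blocks with at least 40 members, the next highest share was 13.04%, between TBC1D22A and TAFA5, and the median was 2.5%.

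Most of these cores lay close to V segments, in a block where most members lay near a segment. Of its 73 members, 51 were inside or within 1 kb of a segment, 22 of them with a core. Of the 22 members farther away, 4 had a core. For all 26 members with a core the nearest segment was a V segment, within 2 kb in 23. In 14 of them the core began 60 to 87 bases past the segment's 3′ end, with a median of 67. Of these 14 segments 5 were annotated as pseudogenes. The windows of IGHV3-72, IGHV4-34 and IGHV4-59 printed above belong to this group. Members with a core were stronger, with a median fold enrichment of 19.1 against 8.74 in replicate 1 and 19.6 against 9.73 in replicate 2. The values overlapped, since members with a core lay between 4.14 and 56.8 in replicate 1 and between 5.09 and 52.8 in replicate 2, and the strongest member of the block, beside IGHV4-80 at 102 and 113, had none. Of those with a core the strongest was beside IGHVIII-82, at 56.8 and 52.8, followed by that beside IGHVIII-5-2, at 47.2 and 47.1.

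The V segments resemble one another, and reads can be misplaced among them. Of the 32-base words in members of this block 19.3% had a copy elsewhere, against 4.98% over all members. Of the 28 members with at most 10% copied words, 6 had the core, or 21.4%, and their medians were 15.4 against 9.20 in replicate 1 and 18.6 against 10.2 in replicate 2. The part of misplaced reads in the other values was not tested. Leaving out every block with immunoglobulin or T cell receptor segments, 8 blocks with 155 members in all, the CTCF share of the other 11030 members was 3.76%, and their medians with and without the core were 9.66 and 8.05 in replicate 1 and 10.4 and 8.85 in replicate 2.

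**Figure D4:**
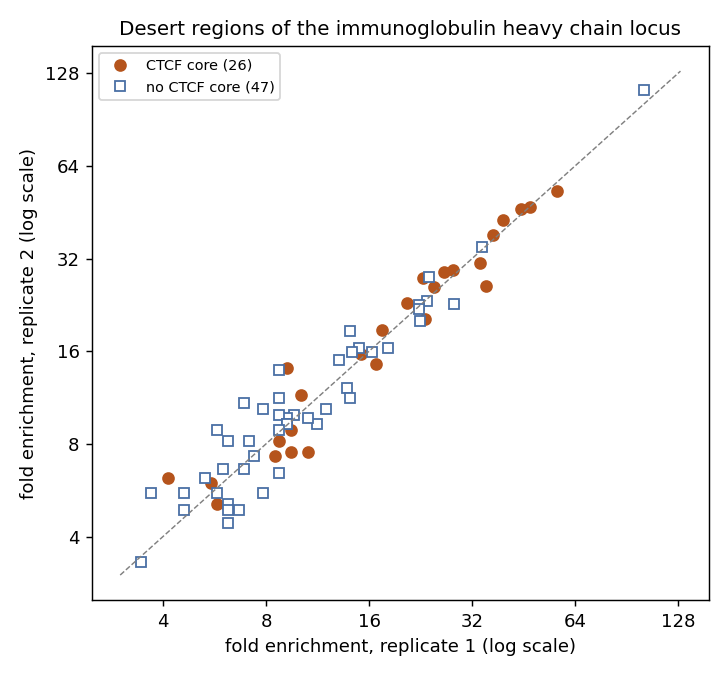
Fold enrichment in replicate 1 (x axis) and replicate 2 (y axis), both on log scales, of the 73 desert regions between TMEM121 and the end of chromosome 14, with a CTCF core (26, filled circles) and without (47, open squares). The dashed line marks equal values. Points with the core gather in the upper part, with medians of 19.1 and 19.6 against 8.74 and 9.73.

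Noncoding genes covered part of the deserts and of their open regions. Inside a lncRNA gene lay 3863 members, or 34.5%, while 27.3% of desert bases were inside one. These members were no stronger than the rest: their median fold enrichment was 8.28 against 8.28 in replicate 1 and 9.07 against 8.85 in replicate 2. Start sites did differ. The 455 members (4.07%) within 1 kb of a noncoding TSS had medians of 9.89 and 10.8, against 8.05 and 8.85 for the others, a ratio of 1.23 ± 0.00253 (SD, n = 2). Only 1.95% of desert bases were that close to a TSS. The GC content of these 455 members was also higher, with a median of 47.4% against 43.6%. Start sites of immunoglobulin segments were counted among them, such as that of IGHV4-80, with fold enrichments of 102 and 113. The part of the immunoglobulin heavy chain block in these values was not tested.

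The lncRNA genes with most members were PVT1, which neighbors MYC, with 74, ENSG00000259345 on chromosome 15 with 55, ENSG00000248752 and LINC02240 on chromosome 5 with 53 and 46, and DIRC3 on chromosome 2 with 39. The genes on chromosome 5 overlap, so some members count for both. Median fold enrichments in replicates 1 and 2 were 7.59 and 7.85 within PVT1 and 10.8 and 10.8 within DIRC3. Among members at noncoding start sites, the strongest was at LINC00536 (chr8:116324491-116325405), 111 bp from the TSS, with fold enrichments of 158 and 170. It was followed by a member at DIRC3 (chr2:217434120-217434667), 178 bp from the TSS, with 123 and 124.

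The strongest members were crowded on chromosome 8. The highest, chr8:128140575-128142788, lay inside PVT1 and 403 kb from the MYC TSS. Its fold enrichment was 221 in replicate 1 and 233 in replicate 2, with pile-ups of 960 and 1053. The next, chr8:37301774-37303382, lay 374 kb from KCNU1, in the desert between KCNU1 and ZNF703, and reached 191 and 213. Of the 10 strongest, 4 were inside PVT1, at chr8:128090496-128092829, chr8:128151975-128154544 and chr8:128139420-128140425 beside the first. Another 3 lay between C8orf90 and TSNARE1, at chr8:141941627-141943407, chr8:141893452-141894273 and chr8:141946684-141947386, with fold enrichments from 131 to 165 in replicate 1. The member at LINC00536, between TRPS1 and EIF3H, was the fifth, and TRPS1 encodes a GATA-type repressor of luminal breast cells.

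Chromosome 8 thus held 9 of the 10 strongest members and 26 of the 100 strongest, but 7.65% of all members. In the comparison class it held 3 of the 10 and 12 of the 100 strongest and 5.52% of all. Its typical member was not stronger: the desert median on chromosome 8 was 8.05 in replicate 1 and 9.07 in replicate 2, against 8.28 and 8.85 on the other autosomes. The share of members with a height over 100 was 15.5% and 18.2% there, against 12.5% and 15.3% elsewhere. The number of copies of chromosome 8 in the cells was not analysed here, and its part was not tested. The strongest member on another chromosome was chr5:74315983-74316854, in LINC01331 and LINC01335 and 316 kb from ENC1, with 126 and 135. Then came chr2:7791763-7793394, between RNF144A and ID2, with 134 and 126.

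Deserts were also read as continuous blocks between coding genes. There were 580 blocks, of which 48 held no member, and the median block had 0.458 Mb and 12 members. The 160 blocks of at least 1 Mb held 6349 members, or 56.8%, and their density had a median of 20.1 per Mb and quartiles of 14.5 and 28.1. The block with most members ran from MYC, a driver of cell growth, to GSDMC, and its 1.41 Mb held 181. Of these 42, or 23.2%, had a height over 100 in both replicates, against 12.2% of all members. The next were ZPLD1 to ALCAM with 125 members in 2.33 Mb, AGA to TENM3 with 113 in 4.10 Mb, PLA2G4A to BRINP3 with 104 in 2.77 Mb and PCDH7 to ARAP2 with 101 in 4.501 Mb.

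Per Mb the order was different. Among the 160 blocks of at least 1 Mb, the block from MYC to GSDMC led with 128 per Mb, followed by ZNF608 to GRAMD2B with 75.1, the immunoglobulin heavy chain block with 69.1, HS6ST1 to RAB6C with 66.0 and RNF144A to ID2 with 63.8. Shorter blocks could be denser, as between C8orf90 and TSNARE1, where 39 members gave 236 per Mb. At the other end, 3 blocks of at least 1 Mb had no member, CWH43 to DCUN1D4, OR4C45 to OR4C46 and the start of chromosome 14 to OR11H12, in which 4.01%, 10.99% and 0.518% of words were unique, where short reads can seldom be placed. The other empty blocks were shorter, and many were mostly unique, such as CSMD1 to MCPH1 with 92.7% unique words. Among the blocks of at least 1 Mb with over 70% unique words the sparsest were GALR1 to SALL3 with 3.55 per Mb (4 members), HS3ST5 to FRK with 3.58 (4 members) and NR2F2 to ARRDC4 with 4.87 (5 members). SALL3 and NR2F2 encode developmental transcription factors. In all, 33 blocks with under 50% unique words made up 90.2 Mb at 3.87 members per Mb, and the rest of the desert held 27.7 per Mb.

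**Figure D5:**
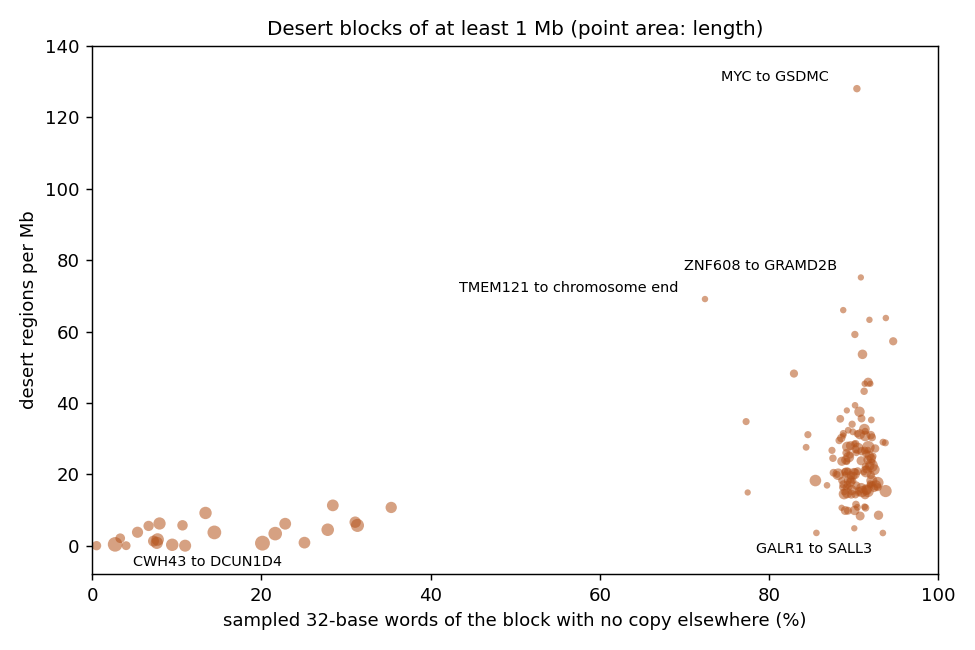
Desert regions per Mb (y axis) of the 160 blocks of at least 1 Mb against the percent of their sampled 32-base words that have no copy elsewhere (x axis). The area of a point is the length of the block, and 5 blocks are named by their flanking genes. Blocks with few unique words lie near 0, and among the others the density runs from 3.55 to 128 per Mb.

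Blocks beside 3 lists of genes differed in density and in length. Of 90 developmental transcription factors, 54 flanked 62 blocks, which held 1470 members at 36.4 per Mb. Of 39 genes at common breast cancer risk loci, 13 flanked 13 blocks with 429 members at 83.2 per Mb. Of 75 neuronal adhesion and synaptic genes, 57 flanked 81 blocks with 2432 members at 19.6 per Mb. All blocks had 23.2 per Mb and those beside no listed gene 22.5. The gaps were smaller for the median block of at least 100 kb, which had 28.997 per Mb beside developmental factors, 60.6 beside risk genes and 18.2 beside neuronal genes, against 24.7 over all blocks and 25.6 beside no listed gene. MYC belongs to the first and the second list, and without its block the densities were 33.1 and 66.2 per Mb. The blocks were few, and no test was made over them. The 13 risk blocks spanned 5.16 Mb in all, the 62 developmental blocks 40.3 Mb and the 81 neuronal blocks 124 Mb. Density fell with distance from a coding TSS inside deserts, and the part of block length in these values was not tested.

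The genes named here are those of each list with most members in their blocks, so their counts are high by choice. Next to GATA3, a luminal master regulator, the block up to CELF2 had 98 members at 45.8 per Mb. TFAP2A, an AP-2 factor, flanked 81 at 59.2 per Mb, BCL11B 99 at 57.3 per Mb and ID2 69 at 63.8 per Mb. Among the risk genes KLF4 flanked 53 members at 69.2 per Mb, TNP1 49 at 140 per Mb, ZMIZ1 49 at 114 per Mb, TBX3, a mammary gland regulator, 41 at 60.6 per Mb, and EBF1 17 at 68.3 per Mb. Among the neuronal genes PCDH7 flanked 167 members at 21.97 per Mb, SLITRK1 129 at 30.3, TENM3 113 at 27.6, PCDH9 111 at 27.5, CDH8 108 at 22.9 and CDH11 104 at 34.9. The block between CDH8 and CDH11 belongs to both genes, so its members count for each.

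Strength varied little between these lists. Median fold enrichments of the members in replicates 1 and 2 were 8.51 and 9.07 beside developmental factors, 8.74 and 9.51 beside risk genes and 8.05 and 8.85 beside neuronal genes, against 8.28 and 8.85 for all. The CTCF core was present in 3.40%, 3.03% and 3.45% of members, against 4.03% of all.

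Many members lay near another member, although the nearest shared region was farther off than in the nearer classes. Another member lay within 12500 bp of 64.0% of members, a share that was not computed for the other classes. At that spacing 280 groups of 5 or more were linked. The largest, chr8:128038257-128283344, held 105 members over 245 kb in and beyond PVT1, with median fold enrichments of 7.59 and 8.18, so that most of its members were ordinary in strength although it held the strongest. The next held 38 members over 126 kb between C8orf90 and TSNARE1, and 35 members over 173 kb on chromosome 20 nearest to SULF2. The nearest shared region of any class was a median of 6923 bp from a member, against 3564 bp at 100 to 300 kb and 2395 bp at 3 to 100 kb.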

How the data were processed

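Peak lists of 2 CAMA-1 ATAC-seq replicates were used. Per the submitters' processing notes, the authors trimmed reads with Trim Galore 0.6.5, aligned them with Bowtie2 2.3.5.1 to hg38 and called peaks with MACS2 2.2.6, in each replicate alone. The settings of the peak caller, the treatment of duplicates and any excluded regions were not given in the sources used here. Each deposited list gives a peak's interval, a score, a fold enrichment (a ratio) and a −log10 p and −log10 q value as the authors' caller wrote them. The lists hold only peaks past the caller's threshold (lowest −log10 q 2.24 and 2.07) and no read counts, so the depth behind a value is unknown from them, the read totals that the study states were not used here, and a missing peak is not a value of 0.

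Peaks of both replicates that shared at least 1 bp were merged, and the highest fold enrichment of each replicate was kept. Pile-up heights were recovered from the step of the fold enrichments, whose values lay within 0.0001 steps of whole multiples. Distances used every TSS of protein-coding transcripts in GENCODE release 44. Territory was counted over bases other than N. Copied sequence was counted over a sample of 1 in 4 of all 32-base words. Python 3.11.15, numpy 2.4.6, pandas 2.3.3 and scipy 1.17.1 were used, and the merging, distance, class and motif steps were checked on simulated data. Lower-case repeat masking was not used here. Replicates are the labels' biological replicates. Regions are not replicates, so values are given per replicate with the SD over 2 and no p.

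The named members were the 10 with the best mean rank of fold enrichment, the 5 blocks with most members, the 5 densest and 3 sparsest of at least 1 Mb, the 5 noncoding genes with most members and up to 6 genes per list by members of their blocks; the sparsest blocks over 70% unique words, CSMD1 to MCPH1, the immunoglobulin block and the strongest members at start sites and outside chromosome 8 were added after values were seen. Members and lists were chosen with earlier results of these data known. Alternatives changed the peak threshold, overlap, distance, TSS definition, noncoding promoters, copied sequence, replicates, strength measure, comparison class and motif window. The values of a blood marker and of a gene in the developmental list are not reported here.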

Additional observations from a re-analysis of the deposited data

Results flagged for a closer look

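Chromosome X, which the rule left out, is data outside the comparisons. It had 5623 shared regions, and by the same definition 475 of them lay in its gene deserts. That they were present is a description and no test. They were spread over the desert bases of the chromosome at 16.6 per Mb, against 23.2 per Mb on the autosomes, and their median fold enrichments were 8.05 in replicate 1 and 8.62 in replicate 2, against 8.28 and 8.85. The number of copies of chromosome X was not analysed here.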

How the results depend on the processing

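The desert density and strength stayed below those at 3 to 100 kb under every alternative run. The count of members was 5922 at 500 kb and otherwise between 8431 and 16578. The density ratio of 0.265 became 0.282 per unique base, 0.281 without copied sequence, 0.214 at 500 kb and 0.306 at 200 kb. The strength ratio of 0.863 became 0.787 in −log10 q, 0.803 with −log10 q of at least 10 and 0.938 against regions at 100 to 300 kb. Desert peaks found again from replicate 1 were 91.2% with −log10 q of at least 10 and 87.9% with 50% reciprocal overlap, and from replicate 2 they were 84.6% and 77.3%, and 79.4% at 500 kb and 80.9% at 200 kb. The excess over all peaks of replicate 1, 1.75 percentage points, turned to -0.125 at the stricter peak threshold. The CTCF share was 5.06% within 100 bp and 4.54% at the stricter threshold, and the forkhead share 9.36% within 100 bp, 5.36% at 200 kb and 5.43% without copied sequence. Leaving out a replicate gave 12339 to 14023 members, density ratios of 0.256 to 0.278, strength ratios of 0.892, CTCF shares of 3.62% to 4.09% and forkhead shares of 5.79% to 5.99%. Of 120 further alternatives, mostly of the other motifs, 105 stayed within the error. The causes of these changes were not tested.

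Alternatives without chromosome 8 and per unique base were added after seeing the data. No paired analysis was possible because the 2 libraries are of 1 condition and no test was made, but each ratio between classes of regions was taken within a library. Without read counts, a region short of the caller's threshold cannot be told from closed chromatin. The peak lists also give no copy number. The paper shows copy number profiles of CAMA-1 from whole-genome sequencing, which were not used here, so copy number was not set beside the peaks. The repeat-masked share was not run, since the reference carries no masking.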

Other observations

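The 11185 members were ordered by strength and parted into 4 groups of like size. The strongest group, 2797 regions, was wider than the others, with a median of 477 bp against 234 bp in the weakest. The CTCF core was present in 4.90% and 5.01% of the 2 stronger groups and in 3.58% and 2.65% of the 2 weaker ones. Forkhead letters were present in 6.69%, 5.36%, 6.01% and 5.62% from the strongest to the weakest group, and AP-1 letters in 6.86%, 7.94%, 7.98% and 7.62%. The groups were made from the measured strength, so these values are a description.

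Only 2 members shared 32-base words with the mitochondrial genome. They lay side by side on chromosome 17, at chr17:22524338-22524552 and chr17:22521296-22521496, 832 kb and 829 kb from KCNJ18. The first had fold enrichments of 33.6 in replicate 1 and 39.6 in replicate 2, above the upper quartile of all members, and the second 5.06 and 10.8. Mitochondrial reads placed there cannot be told apart from open chromatin in these files.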
